A study of Homo sapiens with 6 samples.

Results

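The genes described here carry iron into the cell, store it, export it or sense it. They are the receptor genes TFRC and TFR2, the transporter genes SLC11A2 and SLC40A1, the metalloreductase genes STEAP3 and STEAP4, the ferritin chain genes FTH1 and FTL, and ACO1 and IREB2, which encode the iron regulatory proteins. They were chosen by name, with earlier results of these data known. Each was read by every probe set that the platform annotation gives to that gene alone. This found 23 probe sets for 8 of the 10 genes, out of 54613 probe sets and 19775 genes in all. No probe set was assigned to FTH1 or IREB2 in the annotation used here, and neither gene was analysed.

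Messenger RNA was measured on 6 Affymetrix HG-U133 Plus 2.0 arrays, each made from 6 µg of total RNA. On 3 arrays the cells had been transfected with an siRNA against RNF43, a membrane ubiquitin ligase that restrains Wnt signalling, and on the other 3 with a negative control siRNA. All cells are labelled HepG2, a human line from a liver tumour, were transfected with a cationic lipid reagent and were collected after 48 h. The labels call the arrays of a group biological replicates but do not give the culture each one came from. The p-values therefore cover the array-to-array spread alone, which may be technical in part.

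Most cells take up iron as iron-bound transferrin, which binds transferrin receptor 1, is carried into endosomes and releases its iron there. A STEAP reductase turns ferric into ferrous iron, SLC11A2 (DMT1) moves it into the cytosol, ferritin stores it, and ferroportin, the product of SLC40A1, exports it. When iron is scarce, the iron regulatory proteins bind hairpins called iron-responsive elements, which blocks translation of ferritin mRNA and protects TFRC mRNA from decay. Much of this control therefore acts on translation, which an mRNA array does not measure. In the liver, TFR2 senses transferrin iron and helps to set hepcidin, the hormone that removes ferroportin from membranes.

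The reagents that distinguish the groups are shown first, since every comparison rests on them, with the seed of the antisense strand (bases 2 to 8) in capitals. Sense strands and overhangs are as the labels give them.
RNF43 siRNA, sense: cagaacagaaagcuauuautt
RNF43 siRNA, antisense: aUAAUAGCuuucuguucugtt
Control siRNA, sense: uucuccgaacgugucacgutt
Control siRNA, antisense: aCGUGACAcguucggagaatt

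The hairpin by which iron acts on ferritin mRNA is shown for FTL, from the RefSeq window around its start site (GRCh38.p14, chr19:48965336-48965358, plus strand), with the 6 bases of the loop in capitals. It begins within the first 50 bases of the transcript, in the 5′ untranslated region.
FTL iron-responsive element: tcttgcttcaaCAGTGTttggac
The motif searched was C, 5 bases of stem, the loop CAGTGN and 5 bases that pair with that stem, G-T pairs allowed. It occurred on either strand in 0.216% of 35116 windows of 300 bases around gene starts (76 windows). Windows were held for 8 of the 10 genes, and FTL was the 1 gene of these with the motif on the transcript strand, where 37 of all windows held it. FTH1 and TFR2 had no window and were not searched. The known elements of TFRC and SLC11A2 lie at the 3′ end of the transcript, outside these windows. The windows end 50 bases after the start site. The search therefore does not show that SLC40A1, or any other gene, lacks an element further along its transcript.

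Median log2 signals of the 6 arrays lay between 5.89 and 6.02, and their number limits the precision. RNF43 went against its label: its single probe set read 8.19, 8.22 and 8.41 on the arrays labelled RNF43 siRNA, against 7.65, 7.79 and 7.45 on the control arrays. That is 1.56-fold higher (limma adjusted p = 0.0098; exact two-sided permutation p = 0.1, the smallest that 3 against 3 arrays allow). Directions below therefore follow the labels, with no loss of RNF43 mRNA measured behind them. The cell label was checked against hepatocyte markers, and most were not seen. Of 12 measured, 10 (ALB, APOA1, APOA2, APOB, TTR, SERPINA1, FGA, FGB, AHSG and TF) had none of their 27 probe sets with a mean above the filter of 5.83, the level that keeps the upper 50% of probe sets. The liver tumour marker AFP averaged 6.41 ± 0.26 on the arrays labelled RNF43 siRNA and 7.01 ± 0.11 on the control arrays (SD, n = 3 each). It passed the filter and was not called (limma adjusted p = 0.0877). RBP4, a retinol carrier, passed the filter as well and rose (limma adjusted p = 0.00242). RBP4 made up most of the summed linear signal of the 12, which was 2416 to 2906 on the arrays labelled RNF43 siRNA and 1830 to 2240 on the control arrays. The other 11 summed to 308 to 373 on the arrays labelled RNF43 siRNA and to 411 to 494 on the control arrays. Of these 11, 10 lay below the filter, where values vary most, and the sums were not tested. Of 11 measured macrophage markers 0 passed the filter, and CD163 and TIMD4 had a value of 0 on at least 1 array. Of 8 measured erythroid markers the globin gene HBB and its chaperone AHSP passed, neither called as changed. Of 10 measured fibroblast and stellate cell markers 7 passed, of which COL3A1, ACTA2, FAP and DCN fell and 0 rose. That is 57.1% called, against 22.6% of all tested genes. Mean signals of these 7 ran from 6.08 (RGS5) to 13.17 (LUM) on the arrays labelled RNF43 siRNA. On the control arrays they ran from 6.20 (RGS5) to 13.36 (LUM). ALB averaged 4.24 on the arrays labelled RNF43 siRNA and 4.19 on the control arrays. The summed linear signal of that fibroblast list was 12551 to 13697 on the arrays labelled RNF43 siRNA and 15991 to 16131 on the control arrays. Among 20 proliferation genes 11 rose and 0 fell (55% called, against 22.6% of all tested genes), with summed signals of 81820 to 87682 on the arrays labelled RNF43 siRNA and 66104 to 75292 on the control arrays. The part of these shifts in the iron gene results was not tested, and fewer cells of a type cannot be told apart from less RNA per cell. Whether the cells were those of the label was not tested beyond these markers.

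Among the iron genes STEAP4 rose on its brightest probe set, while TFRC, TFR2 and SLC11A2 were each called on 1 of their tested probe sets and not on the brightest. Each gene was first read by its brightest probe set and fitted together with all other genes whose mean passed the filter. Of the 7 genes that passed, STEAP4 rose, 0 fell and 6 were not called, where 22.6% of all 11853 tested genes were called (11.5% higher and 11.1% lower). The median log2 difference of the 7 genes was -0.07, against -0.0028 over all tested genes, and the median size of the difference was 0.14 and 0.19. In the fit of all 27306 probe sets above the filter, 16 of the 23 iron probe sets could be tested, 3 rose and 1 fell (25%), where 15.5% of all tested probe sets were called (7.9% higher and 7.55% lower). With each array centred on its median 3 rose and 0 fell. In that setting more of all called probe sets rose than fell as well. The shares of 7.9% and 7.55% belong to the fit without centring, and the 3 to 0 split was not tested against that tilt. The groups did not overlap on 7 of the 16, or 43.8%, against 33.8% of all tested probe sets.

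**Figure D1:**
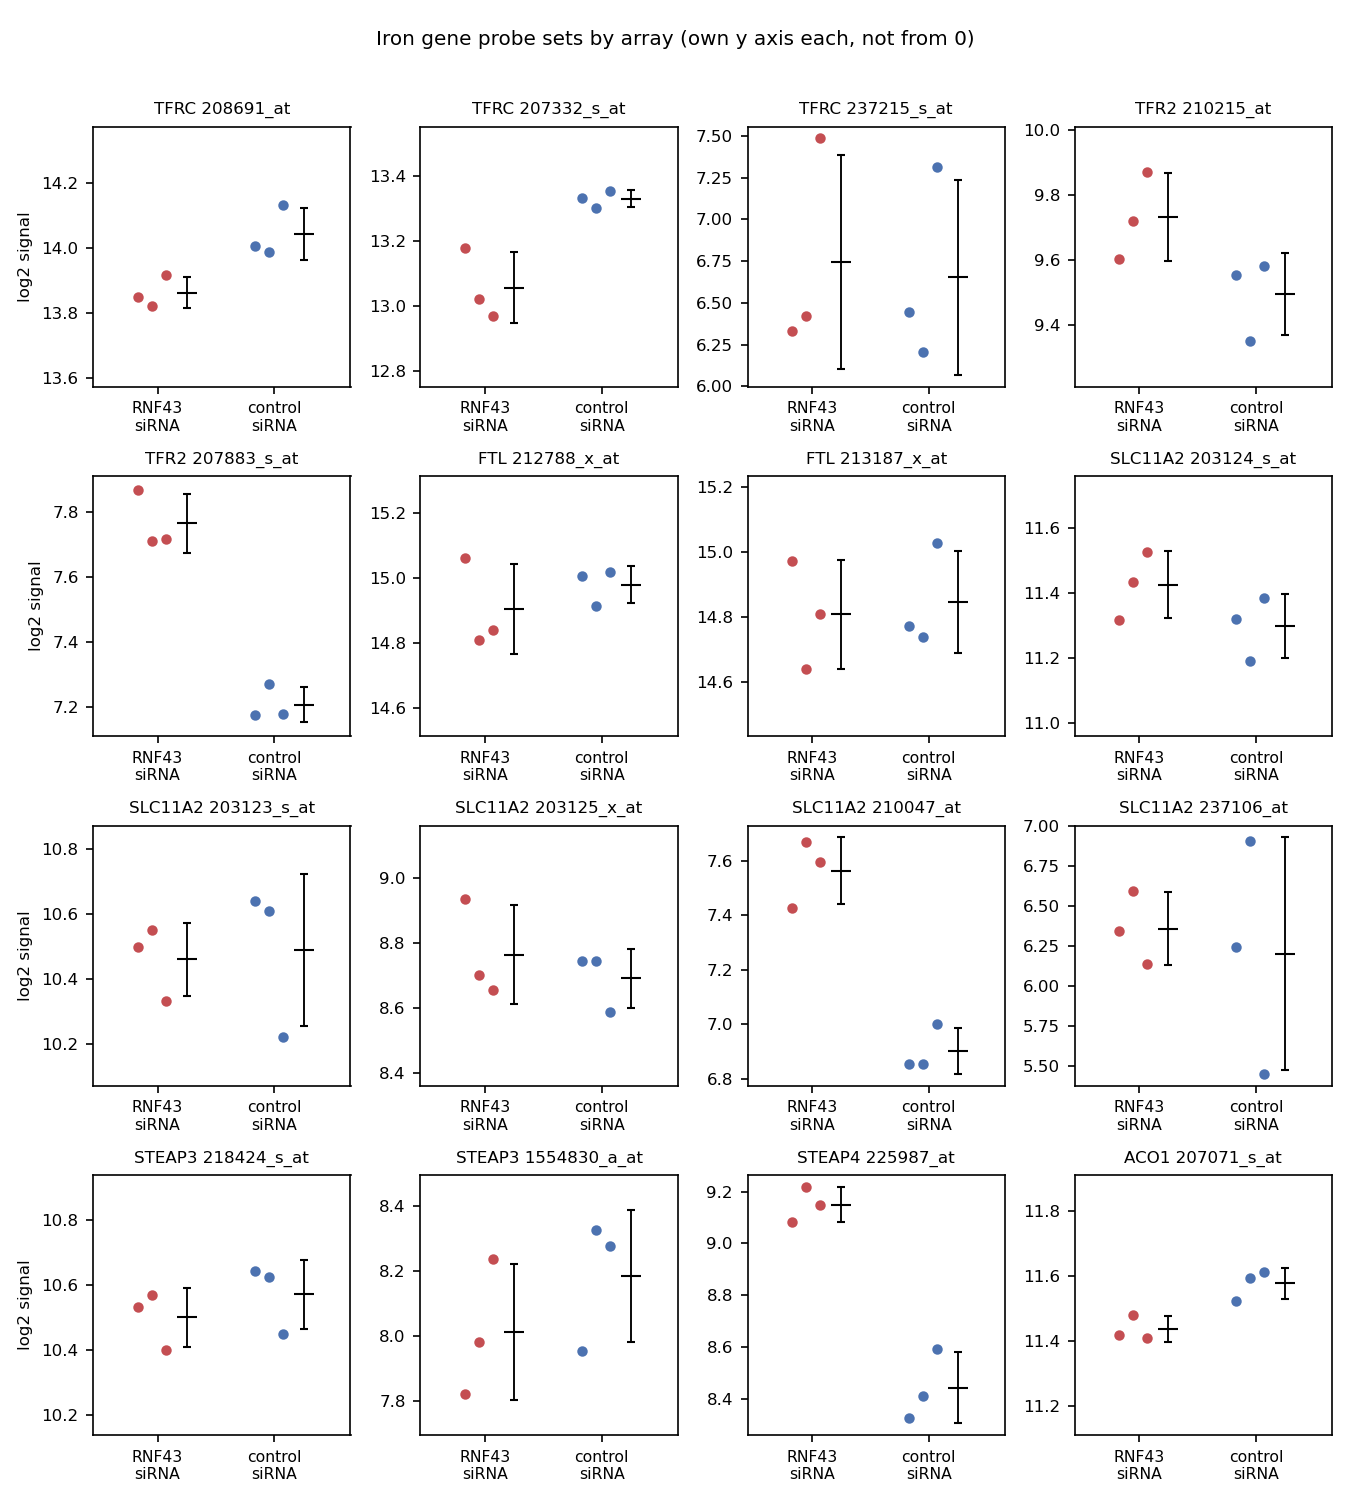
The log2 signal of each of the 16 tested iron gene probe sets is plotted for the 3 arrays labelled RNF43 siRNA (red, left) and the 3 control arrays (blue, right), with mean and SD as black bars and a y axis of its own for each panel. The groups stand apart for STEAP4 225987_at, SLC11A2 210047_at, both TFR2 panels, TFRC 208691_at and 207332_s_at and ACO1 207071_s_at, and overlap in the other 9.

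STEAP4, a plasma membrane and endosomal reductase of iron and copper, showed the clearest rise. Its brightest probe set, 225987_at, read 9.08, 9.22 and 9.15 on the arrays labelled RNF43 siRNA, against 8.32, 8.41 and 8.59 on the control arrays. All values of the first group lay above all values of the other, and the lowest of them exceeded the highest control value by more than the SD of either group. The means were 9.15 ± 0.07 and 8.44 ± 0.14 (SD, n = 3 each), a 1.63-fold rise with a 95% confidence interval of 1.38 to 1.93 (log2 difference 0.71, SE 0.11, limma adjusted p = 0.00139 in the gene fit and 0.0038 in the probe set fit). The call held in all 19 alternatives of the gene fit (adjusted p 2.29e-04 to 0.0491). The other STEAP4 probe set, 220187_at, fell just under the filter and was not tested. It read 6.01, 5.72 and 6.13 on the arrays labelled RNF43 siRNA, against 5.34, 5.40 and 5.80 on the control arrays, so its groups overlapped.

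STEAP3 encodes the endosomal reductase that serves transferrin-bound iron in red cell precursors. Its brightest probe set, 218424_s_at, read 10.53, 10.57 and 10.40 on the arrays labelled RNF43 siRNA, against 10.64, 10.62 and 10.45 on the control arrays. The groups overlapped, and the log2 difference of -0.07 had a 95% interval of -0.27 to 0.12 (probe set fit, limma adjusted p = 0.645). On 1554830_a_at the difference was -0.17, with an interval of -0.54 to 0.19, and was not called either.

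A further STEAP family gene and a further reductase gene, from a list of other iron transporters and reductases, moved in opposite directions. STEAP1, a STEAP protein that lacks the NADPH-binding part of its relatives, read 8.19, 8.25 and 8.31 on the arrays labelled RNF43 siRNA, against 9.08, 9.37 and 9.40 on the control arrays. It fell 2.05-fold (log2 difference -1.04, SE 0.12, limma adjusted p = 1.80e-04). CYBRD1, the ferric reductase of the gut lining known as duodenal cytochrome b, read 8.52, 8.64 and 8.73 on the arrays labelled RNF43 siRNA, against 7.72, 7.69 and 7.89 on the control arrays. Its log2 difference of 0.86 (SE 0.13) was a 1.82-fold rise (limma adjusted p = 9.52e-04), while its 1 other tested probe set, 217889_s_at, was not called (log2 difference 0.34, adjusted p = 0.259). Of 99 tested genes in the other iron lists, CYBRD1 had the pattern most like that of STEAP4, by Pearson's r of 0.987 over the 6 arrays. That value describes 6 arrays that fall into 2 groups which do not overlap for either gene.

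**Figure D2:**
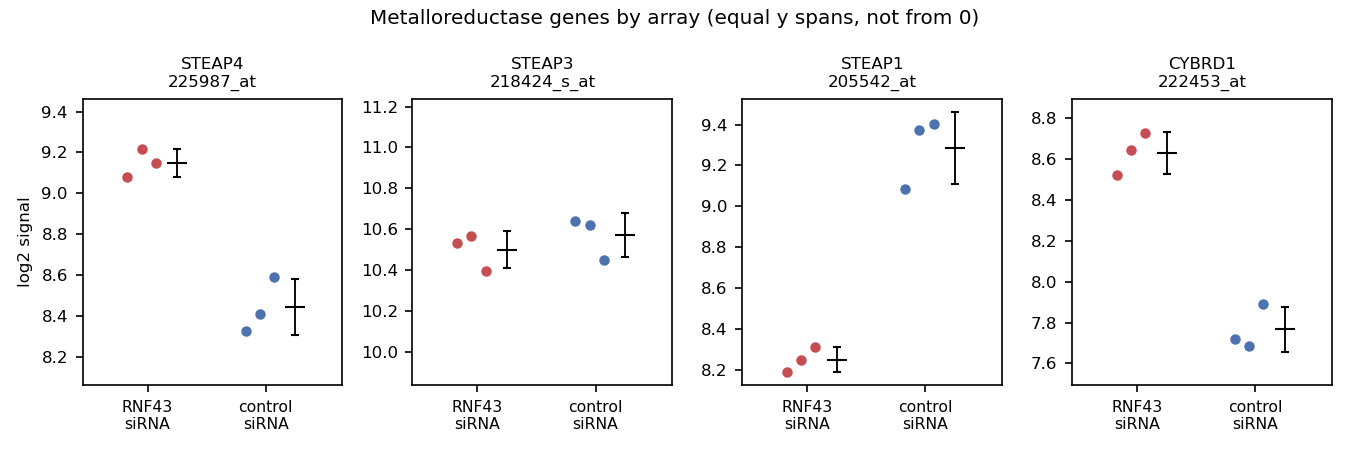
The log2 signal of the brightest probe set of STEAP4, STEAP3, STEAP1 and CYBRD1 is plotted for the 3 arrays labelled RNF43 siRNA (red, left) and the 3 control arrays (blue, right), with mean and SD as black bars and y axes of equal span. STEAP4 and CYBRD1 rose and STEAP1 fell with no overlap between the groups, while the STEAP3 groups overlapped.

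The transferrin receptor genes differed in opposite directions, each on its second brightest probe set. TFRC, which encodes transferrin receptor 1, the main port of iron entry, had 5 probe sets, of which 3 were tested. The brightest, 208691_at, read 13.85, 13.82 and 13.91 on the arrays labelled RNF43 siRNA, against 14.01, 13.99 and 14.13 on the control arrays. The groups did not overlap, but the log2 difference of -0.18 (SE 0.06) was not called (limma adjusted p = 0.0663 in the gene fit, 0.0883 in the probe set fit). This non-call depended on the setting. In the gene fit TFRC was called with array weights (adjusted p = 0.0428) and with arrays blocked by replicate number (0.0144). It stayed uncalled in 17 of 19 alternatives. Over all of them the limma adjusted p ran from 0.0144 to 0.778 and the log2 difference from -0.21 to -0.067. The next, 207332_s_at, read 13.18, 13.02 and 12.97 on the arrays labelled RNF43 siRNA, against 13.33, 13.30 and 13.36 on the control arrays. It fell 1.21-fold, with a 95% confidence interval of 1.09 to 1.34 (log2 difference -0.27, SE 0.07, adjusted p = 0.026 in the probe set fit). This call was lost in 9 of 17 alternatives, among them each fit without 1 array other than the one without RNF43 siRNA replicate 1 (adjusted p 0.0514 to 0.0962 in those 5 fits, 0.00786 to 0.112 over all alternatives). On 237215_s_at the groups overlapped, with values of 6.33, 6.42 and 7.48 on the arrays labelled RNF43 siRNA and 6.44, 6.20 and 7.31 on the control arrays. Replicate 3 was the highest in both groups on this probe set. The remaining TFRC probe sets, 240686_x_at and 237214_at, lay below the filter, with SDs of 1.11 and 1.44 on the arrays labelled RNF43 siRNA, and gave no test.

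TFR2, the receptor by which hepatocytes and red cell precursors sense transferrin iron, had 2 tested probe sets. The brightest, 210215_at, read 9.60, 9.72 and 9.87 on the arrays labelled RNF43 siRNA, against 9.55, 9.35 and 9.58 on the control arrays. The groups were separated by a narrow gap, and the log2 difference of 0.24 (SE 0.10) was not called (limma adjusted p = 0.134 in the gene fit). The second, 207883_s_at, read 7.87, 7.71 and 7.72 on the arrays labelled RNF43 siRNA, against 7.17, 7.27 and 7.18 on the control arrays. It rose 1.47-fold, with a 95% confidence interval of 1.16 to 1.86 (log2 difference 0.56, SE 0.15, adjusted p = 0.0355 in the probe set fit). The gap between its groups was wide beside their SDs of 0.09 and 0.05, yet the call was lost in 8 of 16 alternatives, including each of the 6 fits without 1 array (adjusted p 0.0646 to 0.111 in those fits, 0.0183 to 0.111 over all alternatives). In those 6 fits the log2 difference itself stayed between 0.51 and 0.59. The third TFR2 probe set, 215863_at, lay below the filter.

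SLC11A2, the divalent metal transporter DMT1 that moves ferrous iron out of endosomes and across the gut lining, had 5 probe sets, all tested, and 1 of them rose. On 210047_at the values were 7.43, 7.67 and 7.60 on the arrays labelled RNF43 siRNA, against 6.85, 6.85 and 7.00 on the control arrays. The groups did not overlap, and the rise was 1.58-fold with a 95% confidence interval of 1.22 to 2.06 (log2 difference 0.66, SE 0.17, limma adjusted p = 0.028 in the probe set fit). It was lost in 7 of 17 alternatives, among them each fit without 1 array except that without control siRNA replicate 3 (adjusted p 0.0504 to 0.108 in those 5 fits, 0.0136 to 0.108 over all alternatives). The brightest SLC11A2 probe set, 203124_s_at, read 11.32, 11.43 and 11.52 on the arrays labelled RNF43 siRNA, against 11.32, 11.19 and 11.38 on the control arrays. Its log2 difference of 0.13 had an interval of -0.06 to 0.31 and was not called. The interval on 210047_at was 0.28 to 1.04, so the intervals overlap at their ends. The differences were -0.03 on 203123_s_at, 0.07 on 203125_x_at and 0.16 on 237106_at, with overlapping groups on all 3. Transcripts of SLC11A2 differ at both ends, with and without an iron-responsive element. Which of them each probe set reads was not analysed here, and the difference between probe sets was not tested.

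**Figure D3:**
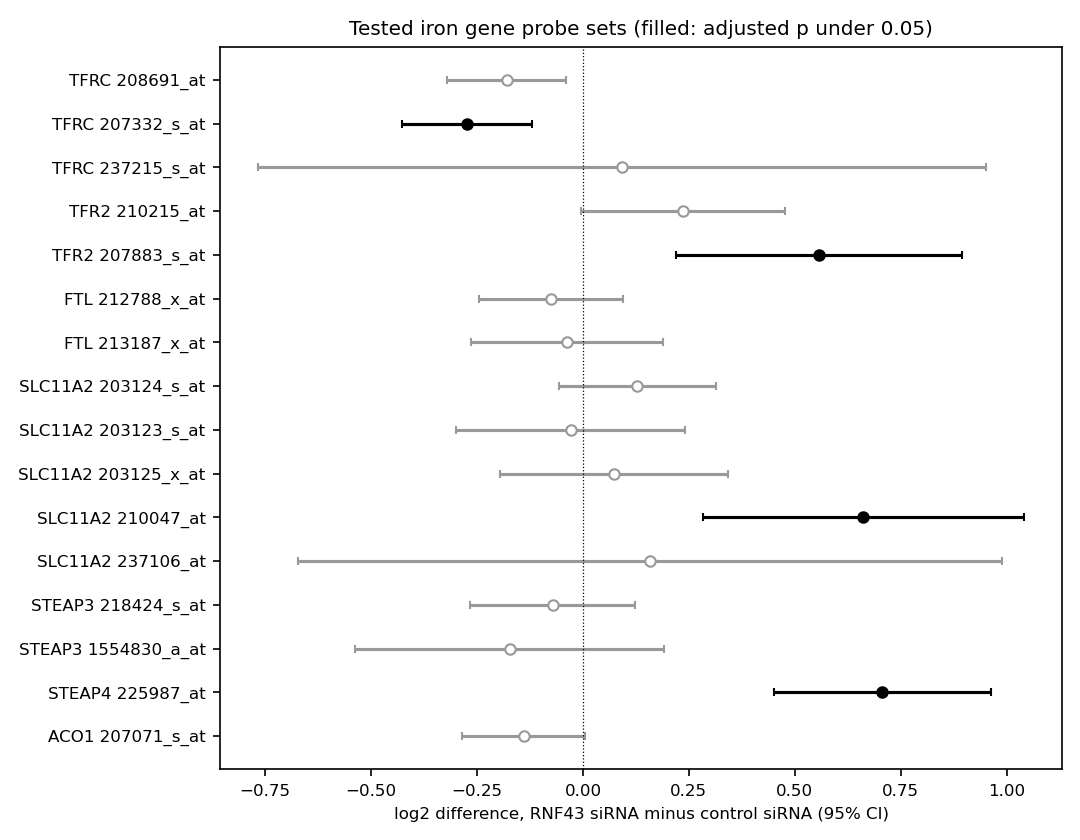
The log2 difference between the arrays labelled RNF43 siRNA and the control arrays is plotted for each tested iron gene probe set with its 95% confidence interval from the probe set fit (3 arrays a group). Filled points mark the 4 probe sets with adjusted p under 0.05: TFRC 207332_s_at at -0.27, TFR2 207883_s_at at 0.56, SLC11A2 210047_at at 0.66 and STEAP4 225987_at at 0.71.

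FTL, the light chain of ferritin, which helps the iron core to form, was read by 2 probe sets. On 212788_x_at the values were 15.06, 14.81 and 14.84 on the arrays labelled RNF43 siRNA, against 15.01, 14.91 and 15.02 on the control arrays. The groups overlapped, and the log2 difference of -0.08 had a 95% interval of -0.25 to 0.09 (limma adjusted p = 0.566 in the probe set fit). On 213187_x_at the difference was -0.04, with an interval of -0.27 to 0.19. Both IDs carry the ending _x_at, given to sets whose probes may cross-hybridise, so ferritin pseudogene transcripts cannot be told apart from FTL. The hairpin shown above acts on the translation of this mRNA, and no protein was measured.

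SLC40A1, which encodes ferroportin, the exporter of iron from cells, had both probe sets below the filter and was not tested. On 233123_at it read 5.88, 6.05 and 5.19 on the arrays labelled RNF43 siRNA, against 5.73, 5.90 and 5.36 on the control arrays. The groups overlapped here and on 223044_at, where the means were 3.77 ± 0.61 and 3.64 ± 0.63 (SD, n = 3 each). Detection calls were not used here, so a value below the filter does not show that the transcript was absent.

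ACO1 encodes cytosolic aconitase, which becomes iron regulatory protein 1 when it lacks its iron-sulfur cluster. On 207071_s_at it read 11.42, 11.48 and 11.41 on the arrays labelled RNF43 siRNA, against 11.52, 11.59 and 11.61 on the control arrays. All 3 values of the first group lay below the controls, but the log2 difference of -0.14 (SE 0.07) was not called (limma adjusted p = 0.163 in the gene fit). The dim probe set 237622_at, below the filter, differed the other way, by 0.43, with overlapping groups.

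**Figure D4:**
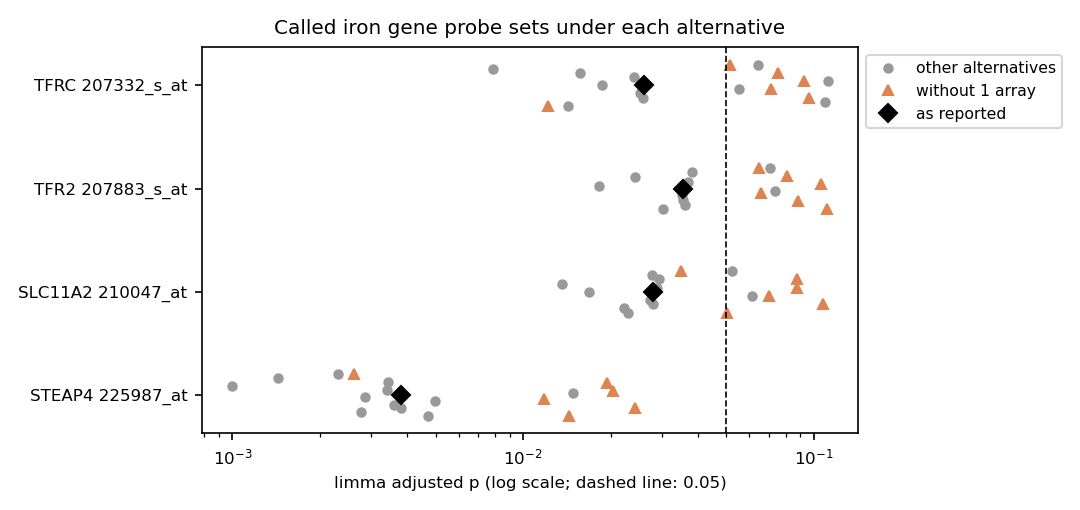
For each of the 4 called iron gene probe sets, the limma adjusted p (log scale) is plotted as reported (diamond), without 1 array (triangles) and under the other alternatives (circles), with the threshold of 0.05 as a dashed line. All points of STEAP4 lie left of the line, and those of TFRC, TFR2 and SLC11A2 lie on both sides.

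The wider iron pathway was read through 8 lists holding 126 genes, of which 115 were measured and 99 tested. Of these 99, 14 rose and 11 fell, which is 25.3% called and near the 22.6% of all tested genes (11.5% higher and 11.1% lower). Values in the next paragraphs are those of the gene fit, each gene read by its brightest probe set.

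For hepcidin and its control by BMP signals, 4 of 16 tested genes rose and 1 fell (31.2% called against 22.6% of all tested genes, median log2 difference 0.13). HAMP, which encodes hepcidin, read 6.23, 6.08 and 6.29 on the arrays labelled RNF43 siRNA, against 6.45, 6.25 and 5.76 on the control arrays, close to the filter. Its groups overlapped (log2 difference 0.043, limma adjusted p = 0.936). BMP2, a ligand that induces hepcidin in the liver, fell 1.52-fold (adjusted p = 0.00234), and its 1 other tested probe set also fell. SMAD7, an inhibitor of BMP and TGF-beta signalling that represses hepcidin, rose 1.49-fold (adjusted p = 0.00296). SMAD6 rose 1.55-fold (adjusted p = 0.00787) and ID1 rose 1.33-fold (adjusted p = 0.0231). SMAD6 and ID1 were not followed through the alternatives. SMAD5, a transducer of BMP signals, rose 1.40-fold on 225219_at (log2 difference 0.49, adjusted p = 0.00135). Of its 4 other tested probe sets 225223_at also rose, and the other 3 differed the opposite way without being called (-0.14 on 235451_at, -0.48 on 205187_at and -0.17 on 205188_s_at). Without RNF43 siRNA replicate 1 another probe set of SMAD5 was the brightest, with a difference of -0.10, and averaging its probe sets lost the call (0.099, adjusted p = 0.467; range over all alternatives 1.39e-04 to 0.61).

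Of the carriers of iron and haem in plasma, 3 of 11 measured genes passed the filter, and 1 of these rose. That is 33.3% called, against 22.6% of all tested genes. TF, the gene of transferrin itself, was not among them. Its brightest probe set read 4.91, 3.78 and 6.05 on the arrays labelled RNF43 siRNA, against 6.24, 3.02 and 6.58 on the control arrays. LCN2, which binds the iron chelators of bacteria, rose 1.78-fold (7.57, 7.55 and 7.91 on the arrays labelled RNF43 siRNA, against 7.10, 6.49 and 6.95 on the control arrays, adjusted p = 0.0166). That call was lost without RNF43 siRNA replicate 3 (adjusted p = 0.0572), without control siRNA replicate 2 (0.055) and without both arrays numbered 3 (0.0527), within a range of 0.00566 to 0.0572. HPX, the haem-binding hemopexin, had a log2 difference of 0.96 (SE 0.35, adjusted p = 0.075, called only with array weights at 0.0379, range over all alternatives to 0.245) and LRP1, its receptor, of 0.088 (SE 0.22), neither called.

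Among 14 tested genes of the list of other transporters and reductases, CYBRD1 rose and STEAP1 and CYB561 fell (21.4% called, against 22.6% of all tested genes). CYB561, an ascorbate-dependent reductase of secretory vesicles, was 1.28-fold lower on 207986_x_at (adjusted p = 0.00555), and 1 of its 4 other tested probe sets fell as well. With _x_at and _s_at sets left out, its log2 difference was -0.086 and the call was lost (adjusted p = 0.523, the highest of a range that began at 5.40e-04).

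For iron chaperones, ferritin turnover and the control of iron regulatory proteins, 1 of 11 tested genes rose and 0 fell, which is 9.09% against 22.6% of all tested genes. NCOA4, the receptor that delivers ferritin to autophagosomes, rose 1.15-fold, with 13.46, 13.37 and 13.27 on the arrays labelled RNF43 siRNA, against 13.16, 13.16 and 13.18 on the control arrays (adjusted p = 0.0469). The call was lost in 9 of 18 alternatives (range 0.0114 to 0.136), including 5 of the 6 fits without 1 array, the exception being RNF43 siRNA replicate 3. In the probe set fit its adjusted p was 0.0642. FBXL5, the iron-sensing subunit of the ligase that degrades iron regulatory protein 2, had a log2 difference of 0.13 (SE 0.11, adjusted p = 0.409). RBX1, a subunit of cullin ligases, and the iron chaperone PCBP2 differed by 0.30 and -0.16 and were not called (adjusted p = 0.0891 and 0.0911). RBX1 was called with array weights (0.0452), without RNF43 siRNA replicate 3 (0.0323) and without both arrays numbered 3 (0.0112). Its adjusted p ran from 5.69e-04 to 0.261 across the alternatives.

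Haem synthesis and breakdown genes rose in 2 and fell in 3 of 13 tested (38.5% called, against 22.6% of all tested genes). BLVRB, a biliverdin reductase, fell 1.44-fold (12.35, 12.13 and 12.29 on the arrays labelled RNF43 siRNA, against 12.74, 12.81 and 12.79 on the control arrays, adjusted p = 6.31e-04). FECH, ferrochelatase, which inserts iron into protoporphyrin, was 1.39-fold lower on 203116_s_at (adjusted p = 0.004). Its 2 other tested probe sets were not called, and the call was lost on averaging its probe sets and on leaving out _x_at and _s_at sets (adjusted p = 0.693 and 0.661, from 7.99e-04 upward over all alternatives). ABCB10, a mitochondrial transporter needed for haem synthesis, rose 1.45-fold (adjusted p = 0.00402). HMOX1, haem oxygenase 1, which frees iron from haem, read 12.82, 12.72 and 12.80 on the arrays labelled RNF43 siRNA, against 12.82, 12.91 and 12.78 on the control arrays, with overlapping groups (log2 difference -0.056, adjusted p = 0.587).

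Of 23 tested genes of iron-sulfur cluster assembly, 3 rose and 4 fell (30.4% called, against 22.6% of all tested genes). HSPA9, the mitochondrial chaperone of cluster transfer, rose 1.22-fold (adjusted p = 0.00626), and 1 of its 2 other tested probe sets rose too. NUBPL, an assembly factor for complex I clusters, fell 1.37-fold (adjusted p = 0.0144), a call lost without RNF43 siRNA replicate 2 or control siRNA replicate 2 (0.051 and 0.069, range over all alternatives 0.00784 to 0.069). MMS19, which hands clusters to DNA metabolism enzymes, fell 1.28-fold (adjusted p = 0.0162), a call lost without RNF43 siRNA replicate 2 or control siRNA replicate 1 or 2 (0.0633 to 0.0707, range over all alternatives 0.00484 to 0.0707).

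Of 14 tested genes that move the transferrin receptor through the cell, 2 rose and 1 fell (21.4% called, against 22.6% of all tested genes). RAB5A, the GTPase of early endosomes, fell 1.42-fold, with 12.83, 12.74 and 12.69 on the arrays labelled RNF43 siRNA, against 13.24, 13.27 and 13.25 on the control arrays (adjusted p = 3.23e-04), and 1 of its 2 other tested probe sets fell. RAB11FIP2, an effector of recycling endosomes, rose 1.39-fold (adjusted p = 0.00234). VPS35 of the retromer rose 1.23-fold (adjusted p = 0.00679), with 1 of its 3 other tested probe sets, but its log2 difference of 0.30 became 0.12 on averaging its probe sets (adjusted p = 0.551) and -0.23 with _x_at and _s_at sets left out (0.801, from 4.56e-04 upward over all alternatives). In a list of other mRNAs reported to hold an iron-responsive element, 0 of 5 tested genes were called by limma, against 22.6% of all tested genes. Of these 5, 2 had an unadjusted p under 0.05. The log2 differences with the smallest p were 0.86 for CDC14A (adjusted p = 0.0537), -0.25 for APP (0.0978) and -0.73 for CDC42BPA (0.174). These non-calls depended on the setting. APP was called with array weights (0.04), without RNF43 siRNA replicate 3 (0.0128) and without both arrays numbered 3 (0.0138), with a range of 0.00393 to 0.961 over all alternatives. CDC42BPA was called with array weights (0.0253), without control siRNA replicate 3 (0.00499) and without both arrays numbered 3 (0.00477), with a range of 0.00176 to 0.611. CDC14A was called with quantile normalization (0.0442), with arrays centred (0.044) and with no intensity trend (0.00948), with a range of 0.00948 to 0.176.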

How the data were processed

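The authors deposited log2 signals, 1 per probe set and array. The submitters' processing notes name MAS5, with version and scaling target not given in the sources used here. MAS5 corrects each probe by its mismatch partner, so dim probe sets vary most. The log base was taken from the data: linear means trimmed by 2% lay at 497.03 to 497.23. Values were used as given. No 2 arrays were identical. Platform gene names were updated to RefSeq symbols (GRCh38.p14).

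Groups and replicates came from array titles. Genes (brightest single-gene probe set) and probe sets were fitted separately with limma 3.58.1 in R 4.3.3 (lmFit, eBayes, intensity trend). Tests were two-sided and adjusted by Benjamini-Hochberg over all 11853 genes or 27306 probe sets in the upper 50% by mean, at a threshold of 0.05. The fit was also run on simulated data with independent noise on each array. That checks the code and does not give the error rate on these arrays. Unless another fit is named, values for single probe sets are from the probe set fit.

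Members and lists were chosen with earlier results of these data known. Named genes are the members, RNF43, up to 3 genes per iron list with the smallest p, HAMP, TF, HMOX1, NCOA4, FBXL5 and cell type markers. SMAD6 and ID1 were named in addition, as the remaining called genes of the hepcidin list. The remaining called genes of the haem and iron-sulfur lists were counted but not described. The alternatives were 19 settings of normalization, added signal, filter, variance model, probe set choice, replicate block and arrays left out.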

Additional observations from a re-analysis of the deposited data

How the results depend on the processing

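STEAP4 kept its direction and call in all 19 alternatives of the gene fit. In that fit the number of called iron genes was 1 without any 1 array, and 2 with array weights, with _x_at and _s_at sets left out and with the replicate block, which add TFRC (adjusted p = 0.0428 with array weights and 0.0144 with the block) or SLC11A2 (0.0182). Called iron probe sets numbered 1 to 2 without 1 array, 1 with no filter or with both arrays numbered 3 left out, 2 with the upper 30% of probe sets or without those ending in _x_at and _s_at, 3 with arrays centred or no intensity trend, and 5 with the replicate block, which adds TFRC 208691_at (adjusted p = 0.0256). Of all genes, 1741 to 2656 were called without 1 array (1741 without RNF43 siRNA replicate 2), and 1587 on averaging each gene's probe sets. Of all probe sets, 2238 to 4465 were called without 1 array, 2787 with no intensity trend, 2491 without IDs ending in _x_at and _s_at, and 6370 with the replicate block. The reported fit called 4219 of 27306. Fewer than that were called with arrays centred and with no filter, although more were tested with no filter. More were called with array weights. With the upper 30% fewer were tested. The count of iron genes or probe sets in a setting therefore does not by itself describe the iron genes. The RNF43 difference was 0.48 without both arrays numbered 3 (adjusted p = 0.0537). Deviations of same-numbered arrays correlated at 0.162, 0.0772 and 0.268, and 5 of 6 arrays correlated best with their own number, which is a hint of pairing. The labels name no shared batch and 1 correlation lay under 0.1, so the reported fits did not pair the samples by number. That choice does not settle whether same-numbered arrays were paired, and some calls depend on it. With the block 3908 genes were called, and it added calls for RBX1 (adjusted p = 5.69e-04), PCBP2 (0.0339), APP (0.00393) and CDC42BPA (0.00176).

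Directions that turned belonged to differences that were not called, apart from SMAD5 and VPS35. ACO1 became 0.15 on averaging its probe sets and 0.43 with _x_at and _s_at sets left out, where PCBP2 became 0.036 and VPS35 -0.23. With array weights LRP1 became -0.038 and HAMP -0.11, and without both arrays numbered 3 they became -0.21 and -0.20. Without 1 array the ranges were -0.092 to 0.25 for LRP1, -0.15 to 0.19 for HAMP, -0.10 to 0.51 for SMAD5, -0.28 to 0.42 for TFRC 237215_s_at, -0.12 to 0.053 for FTL 213187_x_at, -0.16 to 0.046 for SLC11A2 203123_s_at, -0.013 to 0.13 for 203125_x_at and -0.22 to 0.51 for 237106_at. With arrays centred, 203123_s_at was 0.0053. Without both arrays numbered 3, FTL 213187_x_at was 0.052 and SLC11A2 237106_at -0.11. Causes were not tested, except that leaving out probe sets or arrays changed which probe set led for ACO1, PCBP2, VPS35 and SMAD5. No detection calls were used, so signal over background is unknown.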
